A study of Mus musculus with 5 samples.

Results

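Metallothioneins and the genes of the cellular zinc response were examined in RNA-seq of mouse neural stem cells (NSCs) and STO cells. The genes were taken by name: the 4 metallothionein genes Mt1, Mt2, Mt3 and Mt4, the metal-responsive transcription factor gene Mtf1, and the zinc exporter gene Slc30a1. They are 6 of the 25414 genes listed for each sample, and 5 of them were among the 12292 genes tested. The sixth, Mt4, was below the level set for testing. Values are FPKM, that is, fragments scaled by transcript length and by library depth. Comparisons between samples still depend on the scaling, and those between genes on the annotated transcript lengths.

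The NSCs were primary cells of the E12.5 mouse cortex, grown for 5 to 8 passages as monocultures on poly-ornithine and laminin in Neurobasal-type medium with EGF, bFGF, heparin and B27, and gave 2 samples. The STO line, a thioguanine- and ouabain-resistant line of SIM mouse embryonic fibroblasts, had been kept for over 30 passages in high-glucose DMEM with fetal bovine serum, and gave 3 samples. Both carry the strain label C57BL/6, and no treatment with zinc or another metal is named for either. Cell type, medium, passage and origin therefore differ together in the comparison of STO cells with NSCs and cannot be told apart. Nothing states that the replicates came from separate animals or cultures, so the p-values measure only the spread between these samples, which may be technical.

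The FPKM of all genes summed to between 385485 and 446393 per sample, and the depth relative to NSC replicate 1 lay between 0.739 and 1.08. The labels were checked against marker genes. The 7 neural stem cell markers summed to between 4060 and 4273 FPKM in NSCs and to between 24.6 and 26.5 in STO cells, where Sox2, Pax6, Fabp7 and Olig2 were listed at 0. The 6 fibroblast markers summed to between 1352 and 1462 FPKM in STO cells and to between 5.05 and 5.12 in NSCs. NSCs also held RNA of genes used as markers of differentiated neural cells. The 4 astrocyte markers were at 176 to 178 FPKM in sum, of which Aldoc alone gave 155 and 150. The 4 oligodendrocyte markers were at 120 to 122. Whether this RNA came from differentiated cells was not tested. In samples of bulk RNA, fewer cells of a type and less RNA per cell cannot be told apart.

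Metallothioneins are small, cysteine-rich proteins that bind zinc, copper and cadmium through the sulphur of their cysteines and so buffer free zinc. Mt1 and Mt2 are made in most tissues and rise with metals, glucocorticoids and oxidative stress, whereas Mt3 is known mainly from the brain and Mt4 from stratified squamous epithelia. The zinc-finger protein MTF-1, encoded by Mtf1, binds metal response elements (MREs) in the promoters of Mt1, Mt2 and Slc30a1 when zinc is plentiful, and ZnT1, the product of Slc30a1, carries zinc out of the cell.

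The coding sequences of the 3 abundant metallothionein genes are shown because the proteins differ little in the residues that hold the metal. They were read 5′ to 3′ without the stop codon from the GENCODE vM1 transcripts of mm9, and the capitals mark the cysteine codons TGC and TGT.
Mt1: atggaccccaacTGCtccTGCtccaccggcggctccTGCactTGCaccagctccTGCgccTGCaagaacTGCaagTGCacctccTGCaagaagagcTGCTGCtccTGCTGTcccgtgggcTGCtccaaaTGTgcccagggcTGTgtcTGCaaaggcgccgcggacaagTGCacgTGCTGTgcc
Mt2: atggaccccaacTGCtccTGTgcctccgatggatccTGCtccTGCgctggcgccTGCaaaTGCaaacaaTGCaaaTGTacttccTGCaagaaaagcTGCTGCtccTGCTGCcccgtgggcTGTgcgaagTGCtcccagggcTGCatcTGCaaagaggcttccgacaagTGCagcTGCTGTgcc
Mt3: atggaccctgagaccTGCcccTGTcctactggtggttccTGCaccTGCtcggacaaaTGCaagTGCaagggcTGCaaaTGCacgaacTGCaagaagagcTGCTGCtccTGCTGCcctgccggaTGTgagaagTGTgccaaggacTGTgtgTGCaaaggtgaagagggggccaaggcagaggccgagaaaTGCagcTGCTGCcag
Each of the 4 metallothionein genes held 20 cysteine codons, Mt4 included, among 61 codons in Mt1 and Mt2, 68 in Mt3 and 62 in Mt4. Mt1 and Mt2 shared 79.2% of their aligned coding bases, 145 of 183. Mt3 shared 73.2% with Mt1 and 74.9% with Mt2. The longest identical run between the mRNAs was 20 bases for Mt1 and Mt2, 27 for Mt1 and Mt3, and 20 for Mt2 and Mt3.

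The 4 genes lie on the plus strand of chromosome 8, within 43.1 kb, in the order Mt4, Mt3, Mt2 and Mt1. By the mm9 annotation Mt4 spans chr8:96661104-96662931, Mt3 chr8:96676507-96678048, Mt2 chr8:96696518-96697467 and Mt1 chr8:96702989-96704227. Each has 3 exons, which sum to 540 bases in Mt1, 556 in Mt2, 538 in Mt3 and 391 in Mt4. Mtf1 lies at chr4:124479793-124527044 with 11 exons, and Slc30a1 at chr1:193730660-193737126 with 2 exons.

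MRE cores were searched in the 300 bases before each start codon, since the annotated starts of Mt1, Mt2 and Mt3 lie 222, 230 and 193 bases before it. The letters searched were TGCACNC and TGCGCNC, on both strands, with N for any base, and the motifs differ at the fourth letter so that both cannot match at 1 position of a strand. All the sites found at Mt1, Mt2, Mt3 and Slc30a1 are given as the plus strand of mm9 with 7 bases on each side. The capitals mark the core, or its reverse complement where it lies on the minus strand.
Mt1, chr8:96702959-96702979: cccgctgTGCACACtggcgct
Mt1, chr8:96702984-96703004: ggagctcTGCACTCcgcccga
Mt1, chr8:96703002-96703022: cgaaaagTGCGCTCggctctg
Mt1, chr8:96703066-96703086: gcctgctGGGTGCAaaccctt
Mt1, chr8:96703080-96703100: aacccttTGCGCCCggactcg
Mt2, chr8:96696461-96696481: ggagggcGTGTGCAggctctg
Mt2, chr8:96696515-96696535: tcgggtcGTGCGCAggcccag
Mt2, chr8:96696569-96696589: aaagggcGTGTGCAggcggcg
Mt2, chr8:96696588-96696608: cgggggcGCGTGCAtggtgcc
Mt2, chr8:96696622-96696642: gagctttTGCGCTCgacccaa
Mt3, chr8:96676527-96676547: acagcagTGCACACacacgga
Mt3, chr8:96676554-96676574: gcgctgtGCGTGCAtaggggc
Mt3, chr8:96676586-96676606: cgctgctTGCGCGCccccgcc
Slc30a1, chr1:193730610-193730630: gggttccGAGTGCAaagcaaa
Slc30a1, chr1:193730683-193730703: ccgggccGAGCGCAgtcgccg
Thus 5 cores lay before the start codon of Mt1, 4 of them on the plus strand. Mt2 also had 5, of which 4 were on the minus strand. Mt3 had 3, Slc30a1 had 2, Mt4 had 1 and Mtf1 had 0. For Mtf1 the start codon lies 2162 bases past the annotated start, so its window holds no sequence upstream of the gene. Of the 22377 windows of the same length before the start codons of coding genes, 25.1% held at least 1 core, 7.02% at least 2, 1.83% at least 3 and 0.125% at least 5. These windows were not matched for base content, although the cores are rich in G and C. The windows of Mt1, Mt2, Mt3 and Slc30a1 held 62%, 64.3%, 61% and 72.3% G and C. Most of the cores listed above lie past the annotated transcript start: 4 of 5 at Mt1, 4 of 5 at Mt2, all 3 at Mt3 and 1 of 2 at Slc30a1. In the 250 bases before the annotated start, Mt1 held 1 core, Mt2 held 3, Mt3 held 0 and Slc30a1 held 1, and 21.4% of the 32851 windows of that kind held at least 1 and 1.26% at least 3. The count thus depends on where the window is set. These are matches of letters in a window, and binding of MTF-1 was not measured.

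**Figure D1:**
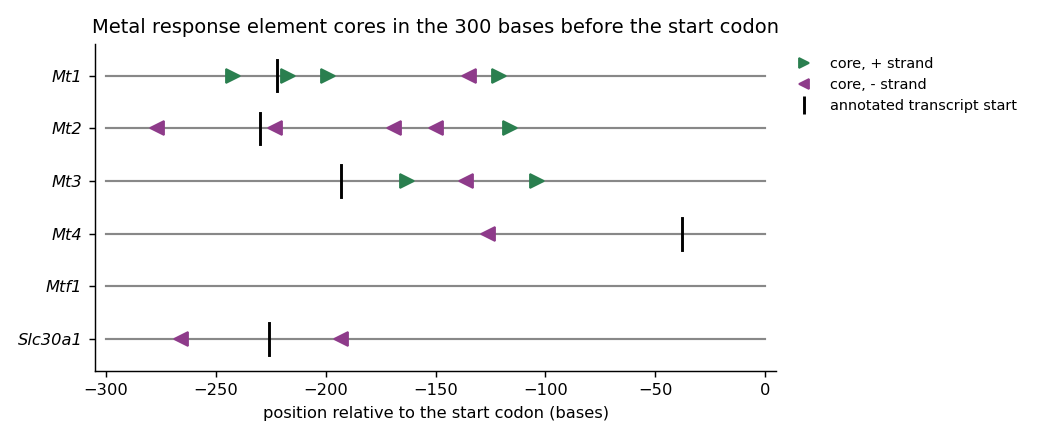
Positions of the MRE cores in the 300 bases before the start codon, with the distance to the start codon in bases on the x axis 1 line per gene, triangles that point with the strand of the core and a tick at the annotated transcript start. Mt1 and Mt2 have 5 cores each, Mt3 has 3, Slc30a1 has 2 and Mt4 has 1.

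Mt1 was the most abundant metallothionein in every sample and was lower in STO cells. Its FPKM was 624 and 677 in NSC replicates 1 and 2, and 306, 277 and 332 in STO replicates 1, 2 and 3. Both NSC samples lay above all 3 STO samples, and the group means were 650 ± 37.5 (SD, n = 2) and 305 ± 27.9 (SD, n = 3), a 2.13-fold higher level in NSCs. The difference, STO minus NSC, was -1.09 on the log2(FPKM + 1) scale (SE 0.095, 95% interval -1.33 to -0.86), with an adjusted p of 5.7e-05 by limma with Benjamini-Hochberg adjustment over all genes tested. By FPKM, Mt1 ranked 109 and 92 among all 25414 genes in NSCs and between 167 and 189 in STO cells.

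Mt2, which encodes the metallothionein closest to that of Mt1, did not share its direction. Its FPKM was 183 and 198 in the NSC samples and 246, 210 and 255 in the STO samples. The groups did not overlap, although STO replicate 2 lay near the higher NSC sample. The means were 190 ± 10.8 (SD, n = 2) and 237 ± 23.7 (SD, n = 3), so that Mt2 was 1.25-fold higher in STO cells, with a log2 difference of 0.31 (SE 0.098, 95% interval 0.072 to 0.55, limma adjusted p = 0.0232). This call was lost without STO replicate 1, STO replicate 3, NSC replicate 1 or NSC replicate 2, with adjusted p-values of 0.0691, 0.0621, 0.187 and 0.092, and was kept without STO replicate 2. With the replicate number as a block the difference was 0.26 and the adjusted p 0.0712.

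The balance of Mt1 and Mt2 was nearly constant within each cell type. Mt1 was 3.42 times Mt2 in both NSC replicates, and 1.24, 1.32 and 1.30 times Mt2 in the STO replicates. The ratios were thus 3.42 ± 0.0032 (SD, n = 2) and 1.29 ± 0.039 (SD, n = 3), with no overlap. The log2 ratio was lower by 1.40 in STO cells, that is, the difference was -1.40, with a two-sided exact permutation p of 0.1. That is the smallest p which the 10 splits of 2 and 3 samples allow. Within STO cells, replicate 2 had the lowest value of both genes and replicate 3 the highest, while in NSCs replicate 2 had the higher value of Mt1, Mt2 and Mt3.

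Mt3, the metallothionein best known from brain, was abundant in NSCs and listed at 0 in STO cells. Its FPKM was 325 and 392 in NSC replicates 1 and 2, above the level of Mt2 in the same samples. It was listed at 0 in all 3 STO samples. On the log2(FPKM + 1) scale the difference was -8.48 (SE 0.086, limma adjusted p = 5.7e-09), the seventh lowest of all genes tested; its size is set by the pseudocount of 1 and is no fold change. The deposited intervals imply 5442 and 7061 fragments of Mt3 in the NSC samples. A listed 0 may not mean that the RNA was absent, since the ribosomal protein gene Rps27 was listed at 0 in all 5 samples and Rpl30 in both NSC samples. Whether such values are failed estimates was not tested. With statuses other than OK left out, the difference of Mt3 was still -8.48.

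The sums of the markers of differentiated neural cells were also higher in NSCs, as Mt3 was, although Tubb3 was not called (-0.058, limma adjusted p = 0.477). The 4 astrocyte markers were all at or above 1 FPKM in NSCs, led by Aldoc at 155 and 150 FPKM, and summed to between 0.207 and 0.412 in STO cells. The 4 oligodendrocyte markers, 3 of them at or above 1 FPKM in NSCs, were led by Mbp at 83.4 and 88.3 FPKM and summed to between 0.961 and 1.14 in STO cells. The 5 neuron markers summed to between 17.5 and 19.1 FPKM in NSCs and to between 7.84 and 8.61 in STO cells, where nearly all of the sum was Tubb3 at 8.57, 7.84 and 8.49 FPKM, against 9.25 and 8.14 in NSCs. Their part in the level of Mt3 was not tested.

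Mt4, the epithelial member, was near the limit of detection. Its FPKM was 0.0813 in NSC replicate 1, which the deposited interval puts at 1 fragment, and it was listed at 0 in the other 4 samples. It entered no test. The keratinocyte markers Krt5 and Krt14 were listed at 0 in NSCs, and the 4 keratinocyte markers summed to at most 3.17 FPKM in any sample.

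Together the metallothionein genes made up 0.255% and 0.284% of the FPKM of all genes in the NSC samples, and 0.139%, 0.126% and 0.147% in the STO samples. Their sum was 1131 and 1267 FPKM in NSCs and 552, 487 and 587 FPKM in STO cells, with means of 1199 ± 96.0 (SD, n = 2) and 542 ± 50.9 (SD, n = 3). Mt1 gave a like share of the sum in both, 55.1% and 53.4% in NSCs and 55.4% to 56.8% in STO cells. Mt2 made up 16.1% and 15.6% in NSCs and 43.2% to 44.6% in STO cells. Mt3 made up 28.7% and 31.0% in NSCs. Without Mt3, the sum of Mt1 and Mt2 was 806 and 875 FPKM in NSCs, still above each of the 3 STO samples.

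**Figure D2:**
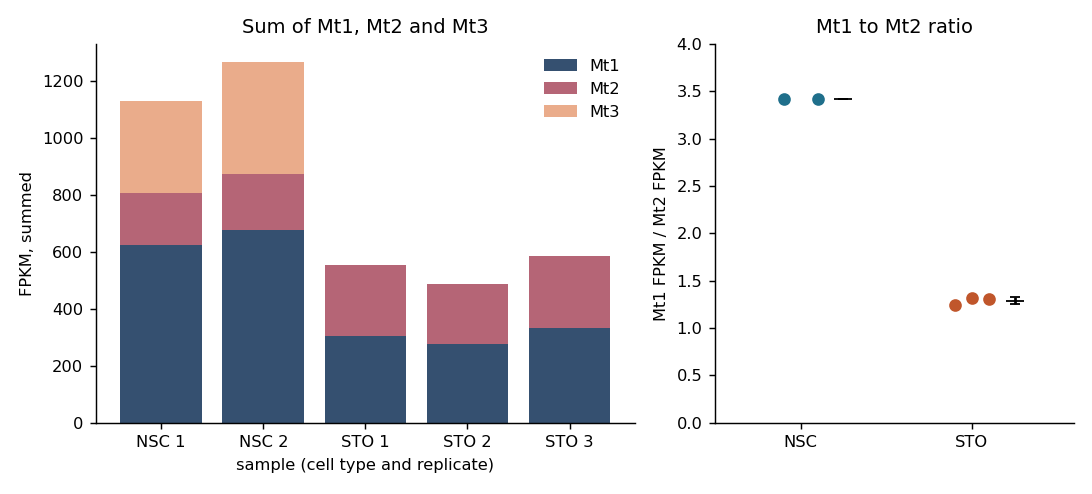
Summed FPKM of Mt1, Mt2 and Mt3 in each sample, stacked by gene, and the ratio of Mt1 to Mt2 in each sample, with the group mean and bars of 1 SD at the side. The sums are 1131 and 1267 FPKM in the 2 NSC samples and 487 to 587 in the 3 STO samples, and the ratio is 3.42 in both NSC samples and 1.24 to 1.32 in STO cells.

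The factor gene moved the other way from Mt1. The FPKM of Mtf1 was 5.45 and 5.66 in the NSC samples and 9.18, 10.6 and 9.32 in the STO samples. Every STO sample lay above both NSC samples, with means of 5.56 ± 0.149 (SD, n = 2) and 9.71 ± 0.803 (SD, n = 3). Mtf1 was therefore 1.75-fold higher in STO cells, with a log2 difference of 0.71 (SE 0.075, limma adjusted p = 0.000154). The level of Mt1 was 114 and 119 times that of Mtf1 in NSCs and 26.0 to 35.6 times in STO cells.

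Slc30a1, the zinc exporter gene that MTF-1 is known to drive, was at a like level in both. Its FPKM was 6.99 and 6.62 in the NSC samples and 6.13, 6.07 and 5.93 in the STO samples. The groups did not overlap, and the means were 6.80 ± 0.262 (SD, n = 2) and 6.04 ± 0.0988 (SD, n = 3), which is 1.13-fold higher in NSCs. The log2 difference was -0.15 (SE 0.053, 95% interval -0.28 to -0.018, limma adjusted p = 0.0376). When each sample was rescaled to the same sum, the difference turned to 0.0042 with an adjusted p of 0.953. The call was also lost under quantile normalization, with a replicate block, and without NSC replicate 1 or any of the 3 STO replicates (adjusted p 0.093, 0.0665, 0.0779 and 0.0927 in that order).

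**Figure D3:**
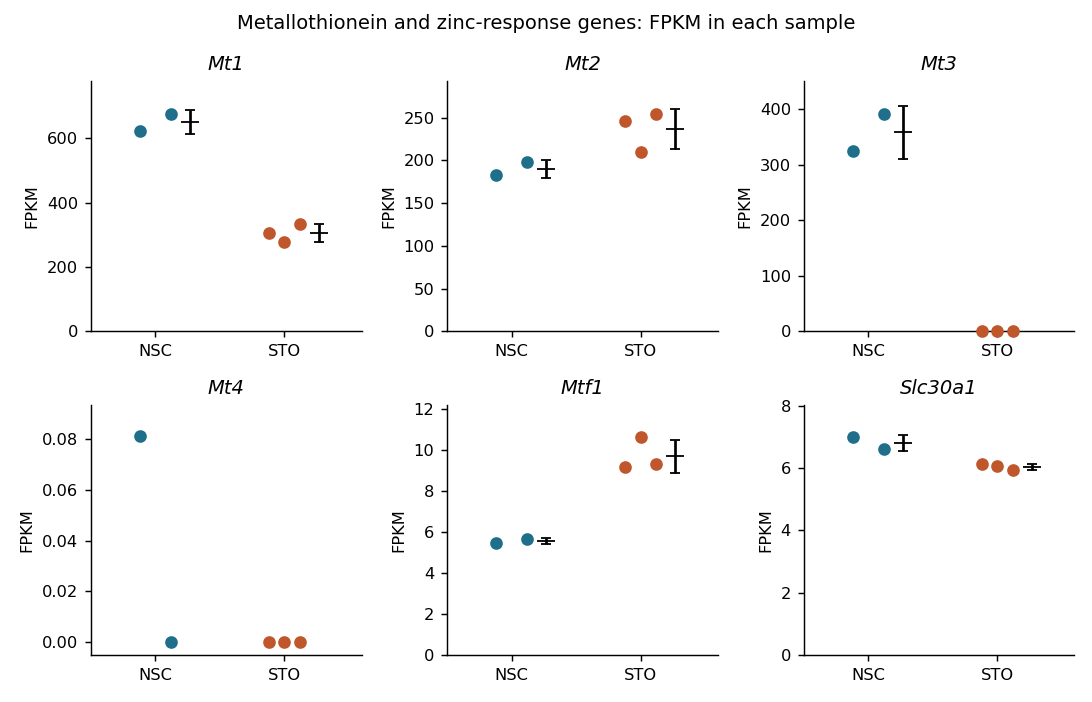
FPKM of each of the 6 genes in each sample, with 1 panel per gene, 1 point per sample and, at the side, the mean with bars of 1 SD for groups with no listed 0. Mt1 and Mt3 are higher in the 2 NSC samples, and Mt2 and Mtf1 in the 3 STO samples, while Slc30a1 differs by 1.13-fold.

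All 5 genes tested passed an adjusted p of 0.05, but so did 85.6% of all genes tested, with 41.9% higher and 43.7% lower in STO cells. The groups did not overlap for these 5 genes, nor for 89.9% of all genes, 43.9% of them with STO cells higher and 46% with STO cells lower. With a log2 difference of at least 1 as a further condition, Mt1 and Mt3 passed, against 38.4% of all genes. Mt1 passed narrowly, at -1.09. Its difference was under 1 in size after rescaling to the same sum (-0.92) and under quantile normalization (-0.74). The call alone therefore sets none of the 5 genes apart, and their sizes differed widely. The absolute difference of Mt3 exceeded that of 99.9% of genes tested, that of Mt1 64.7%, that of Mtf1 48.3%, that of Mt2 23.2% and that of Slc30a1 11.1%.

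Apart from Slc30a1, the zinc exporter genes of the Slc30 family that passed the filter for testing were higher in STO cells. Of the 9 genes Slc30a2 to Slc30a10, 6 were tested, all 6 were higher and 0 lower, where 41.9% of all genes tested were higher and 85.6% were called in either direction. The median log2 difference of the 6 was 0.55 against -0.023 over all genes tested. The direction of the count depends on the filter, since Slc30a3 passed it through its level in STO cells alone. With no filter on low values, 6 were higher and 1, Slc30a10, was lower. On the log2(FPKM + 1) scale, where the pseudocount makes differences of low genes smaller, Slc30a4 had the largest difference. It encodes a transporter that moves zinc into vesicles and, in the mammary gland, into milk. Its FPKM was 5.77 and 7.03 in NSCs and 43.5, 45.2 and 44.0 in STO cells, 6.91-fold higher (log2 difference 2.62, limma adjusted p = 3.7e-07). Slc30a3, whose product fills synaptic vesicles with zinc, was at 0.0636 and 0 FPKM in NSCs and at 2.37, 2.01 and 2.62 in STO cells, for which no fold is given because of the listed 0. The genes of the Golgi and secretory pathway transporters, Slc30a5, Slc30a6 and Slc30a7, differed by 0.53, 0.36 and 0.58 on the log2 scale, and Slc30a9 by 0.42.

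The remaining exporter genes were at or near 0. Slc30a2 and Slc30a8, the latter known from insulin granules, were listed at 0 in every sample. Slc30a10, which is known for manganese export, was at 0.932 and 0.730 FPKM in NSCs and at 0.0076, 0 and 0 in STO cells, and was too low to enter the test.

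The importer genes of the Slc39 family included genes higher in either cell type. Of 14 genes, 11 were tested, of which 5 were higher in STO cells, 5 lower and 1 not called, with a median log2 difference of 0.020. Slc39a8 passed the filter through its level in STO cells alone and Slc39a12 through that in NSCs alone, which fixes their direction in the count. The share called, 90.9%, was near the 85.6% of all genes tested, of which 41.9% were higher and 43.7% lower. The largest rise on the log2(FPKM + 1) scale was that of Slc39a13, known for its part in connective tissue, at 7.63 and 6.39 FPKM in NSCs and 33.4, 29.9 and 32.9 in STO cells (4.57-fold, log2 difference 2.05). Slc39a14, a plasma membrane importer of zinc, iron and manganese, went from 4.36 and 4.25 FPKM to 14.6, 14.2 and 13.9, a 3.31-fold difference. Slc39a8, its closest relative, was at 0.0846 and 0.173 FPKM in NSCs and at 3.16, 3.19 and 3.36 in STO cells, the largest fold of the list at 25.2, from a level under 1 FPKM in NSCs.

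In the other direction, Slc39a12, which is known from brain, was at 1.84 and 1.65 FPKM in NSCs and at 0.0166, 0 and 0 in STO cells. Slc39a10 had 20.7 and 22.8 FPKM in NSCs and 11.0, 11.3 and 11.0 in STO cells, 1.96-fold higher in NSCs, and Slc39a3 and Slc39a11 were lower in STO cells by log2 differences of -1.04 and -0.88. The most abundant importer genes differed little: Slc39a1, of the plasma membrane, by -0.33 and Slc39a7, of the endoplasmic reticulum, by 0.22. The call of Slc39a7 was lost under median-ratio scaling (adjusted p 0.0634), with the replicate block (0.0521) and without STO replicate 1, STO replicate 3 or NSC replicate 2 (0.0681, 0.0631 and 0.0776). Slc39a9, with a difference of 0.020 (limma adjusted p = 0.759), changed sign with the scaling and passed the test after rescaling to the same sum (0.19, adjusted p 0.0268).

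**Figure D4:**
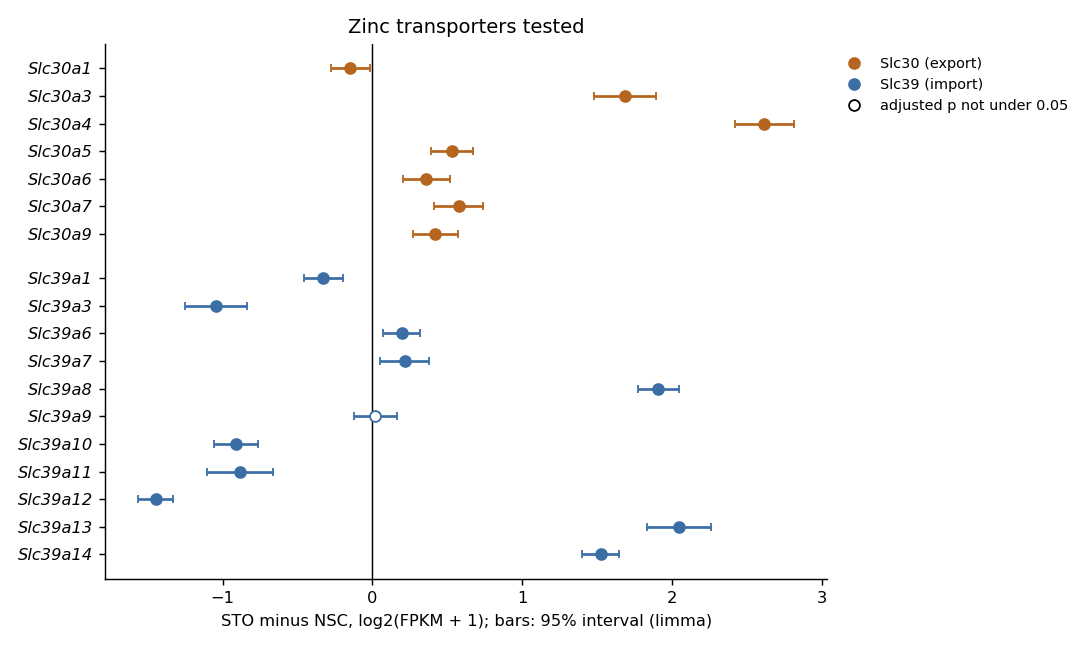
Differences between STO cells and NSCs for the zinc transporter genes tested, as STO minus NSC on the log2(FPKM + 1) scale with bars for the 95% interval from limma and open points where the adjusted p is not under 0.05. All exporter genes apart from Slc30a1 lie to the right of 0, up to 2.62 for Slc30a4, and the importer genes lie on both sides, from -1.45 for Slc39a12 to 2.05 for Slc39a13.

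Further genes linked to MTF-1 were looked at in a short list. Of its 4 genes, 1 was higher and 3 were lower in STO cells, beside 41.9% higher and 43.7% lower among all genes tested, and the median log2 difference was -0.64. Ndrg1, a gene of growth arrest and hypoxia, was 6.11-fold higher, at 19.6, 19.6 and 20.7 FPKM against 3.25 and 3.28 in NSCs. Gclc, which encodes the catalytic subunit of the first enzyme of glutathione synthesis, fell from 28.0 and 32.6 FPKM to 12.8, 12.7 and 12.4. Selenow, a selenoprotein gene, and Csrp1, a LIM domain protein gene, differed by -0.60 and -0.69.

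Copper is the other physiological metal that metallothioneins bind. Of 9 genes of copper handling, 3 were higher in STO cells, 5 were lower and 1 was not called, with a median of -0.74. That is 88.9% called, close to the 85.6% of all genes tested. The copper-exporting ATPase gene Atp7a was at 2.34 and 2.44 FPKM in NSCs and at 11.2, 12.6 and 11.6 in STO cells, 4.95-fold higher. Its paralogue Atp7b was at 3.00 and 2.91 FPKM in NSCs and at 0.358, 0.411 and 0.500 in STO cells, 6.99-fold higher in NSCs. The ATPase genes thus differed in opposite directions, with Atp7b below 1 FPKM in every STO sample. Atp7b passed the filter through its level in NSCs alone, which fixes its direction in the count.

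The uptake gene Slc31a1 was lower in STO cells (log2 difference -0.74) and its relative Slc31a2 higher (1.28). The mitochondrial copper chaperone gene Cox17 had the largest difference of the list on the log2(FPKM + 1) scale, -2.01, although the folds of Atp7a and Atp7b were larger than its 4.18-fold, with 84.3 and 111 FPKM in NSCs and 23.4, 21.5 and 25.3 in STO cells. Sod1, the copper- and zinc-dependent superoxide dismutase gene, was at 281 and 271 FPKM in NSCs and at 122, 118 and 146 in STO cells, while Ccs, the gene of its copper chaperone, was higher in STO cells (0.54). Commd1 differed by -1.17, and Atox1 was not called (-0.22, limma adjusted p = 0.151).

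Oxidative stress also raises Mt1 and Mt2. Of 10 genes of the NRF2 and glutathione list, 7 were higher in STO cells, 2 lower and 1 not called, with a median log2 difference of 0.52. Gclc, also a gene of glutathione synthesis, is counted in the list of genes linked to MTF-1 instead. It was lower in STO cells (-1.20), so the count depends on how genes were assigned to lists. Among all genes tested 85.6% were called, and 41.9% were higher. Nqo1, a quinone reductase gene, was at 2.97 and 2.21 FPKM in NSCs and at 29.7, 26.9 and 30.6 in STO cells, 11.2-fold higher. Hmox1, the haem oxygenase gene, was at 52.6 and 51.8 FPKM in NSCs and at 152, 145 and 154 in STO cells, 2.87-fold higher. Nfe2l2, which encodes NRF2 itself, differed by 0.68, and Txnrd1, Gss and Gclm by 0.59, 0.54 and 0.51.

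Within the same list, the glutathione reductase gene Gsr and the cystine transporter gene Slc7a11 were lower in STO cells, by log2 differences of -1.23 and -1.04. Keap1, the gene of the NRF2 inhibitor, was not called at -0.086 (limma adjusted p = 0.146); it changed sign after rescaling to the same sum (0.084) and was called under median-ratio scaling (-0.14). Srxn1 was called at 0.15 (limma adjusted p = 0.0314), a call lost with quantile normalization, with median-ratio scaling, with the replicate block and without STO replicate 1, STO replicate 3 or NSC replicate 2 (adjusted p 0.0941, 0.0898 and 0.0715 for those 3 samples).

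Of 6 genes of the glucocorticoid response, 2 were higher in STO cells and 4 lower, with a median of -0.62, against 41.9% higher and 43.7% lower among all genes tested. The receptor gene Nr3c1 was higher in STO cells by 1.14, and the kinase gene Sgk1 was 5.45-fold higher, at 12.8 and 12.5 FPKM in NSCs and 74.9, 66.1 and 65.9 in STO cells. Fkbp5, Tsc22d3 and Per1 were lower in STO cells, by -0.79, -0.76 and -0.47, smaller in size than the 2.35 of Sgk1 in the other direction. Zbtb16 was at 1.85 and 1.68 FPKM in NSCs and listed at 0 in the 3 STO samples. It passed the filter through its level in NSCs alone, which fixes its direction in the count.

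Over the 52 genes of the 6 lists, 46 were tested, 24 were higher in STO cells, 19 lower and 3 not called, so that 93.5% were called against 85.6% of all genes tested. The median difference was 0.17. These counts include the genes that passed the filter through a single cell type. With a log2 difference of at least 1, 12 were higher and 10 lower, against 17.1% and 21.3% of all genes.

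The genes described beside the metallothionein cluster differed less than Mt1 and Mt3 did. Gnao1 (-0.73) and Nudt21 (-0.66) among them differed more in size than Mt2 (0.31). Loci within 200 kb of the outermost metallothionein genes included those of Gnao1, Nudt21, Ogfod1 and Bbs2, which lie before Mt4, and of Nup93, Mir138-2 and Slc12a3, which lie beyond Mt1. Bbs2, the nearest to Mt4, was at 3.71 and 3.27 FPKM in NSCs and at 3.01, 3.05 and 3.44 in STO cells, with overlapping groups (log2 difference -0.11, limma adjusted p = 0.212). Nup93, the nearest beyond Mt1, was at 23.6 and 23.3 FPKM in NSCs and at 24.1, 24.3 and 25.8 in STO cells (0.073, adjusted p = 0.242). After rescaling to the same sum, Nup93 was called (0.25, adjusted p 0.0044), and Bbs2 changed sign there (0.030) and under quantile normalization (0.063).

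Farther out, Nudt21 and Gnao1 were lower in STO cells, by -0.66 and -0.73. Ogfod1 differed by -0.20 (limma adjusted p = 0.0395), a call lost with no filter on low values, after rescaling, with the replicate block and without STO replicate 2, STO replicate 3 or NSC replicate 2 (adjusted p 0.0948, 0.0885 and 0.178 for those 3 samples). Mir138-2 was listed at 0 in every sample, and Slc12a3 was at or below 0.0352 FPKM.

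**Figure D5:**
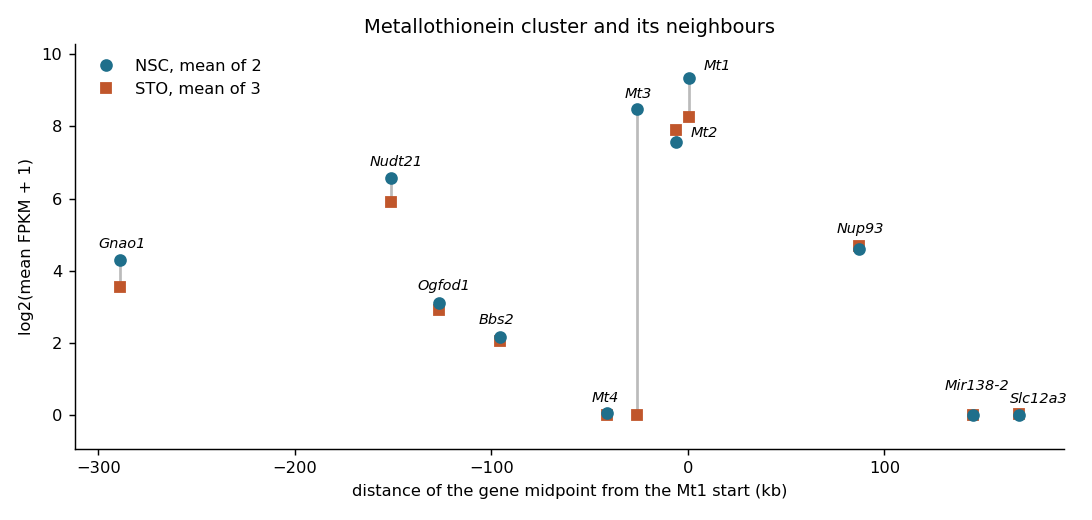
Level of each gene of the metallothionein cluster and of the neighbours described, as log2(mean FPKM + 1), with the distance of the gene's midpoint from the Mt1 start in kb on the x axis, circles for NSCs (mean of 2) and squares for STO cells (mean of 3). The gap between the groups is widest at Mt3 (-8.48) and Mt1 (-1.09), and the neighbours tested lie between -0.73 and 0.073.

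The genes with the most similar levels were found by the Euclidean distance between log2(FPKM + 1) profiles over the 5 samples, which takes level and difference together. For Mt1 they were Mif, H2az1 and Atp5g3, at distances of 0.23, 0.25 and 0.26. For Mt2 they were Tmem176b, Eif4h and Cct6a, at 0.22, 0.26 and 0.27. For Mt3 they were Sox2, Igfbp3 and Bex2, at 0.51, 0.54 and 0.62, each of them high in NSCs. The profile of no metallothionein was among the 3 nearest to that of another.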

How the data were processed

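Total RNA of 2 NSC and 3 STO samples was made into stranded mRNA libraries. Reads were aligned to mm9 with HISAT2 4.8.2 and quantified with Cufflinks 2.2.1, tools and versions named in the submitters' processing notes. The authors deposited FPKM with confidence bounds for 40201 RefSeq transcripts per sample, so that depth is already divided out. Read counts were not used. The fragments behind a value were judged from the deposited bounds, which cover counting error alone.

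Transcripts were given symbols through a RefSeq table of GRCm38.p6, used for names only (39951 of 40201 matched), and transcripts of 1 symbol with overlapping loci were summed to 25414 genes. STO and NSC samples were compared by the moderated test of limma (version 3.58.1, run in R 4.3.3, with a trend in the prior variance). The values fitted were log2(FPKM + 1), and 12292 genes whose mean reached 1 FPKM in either group entered the fit. P-values were adjusted by Benjamini-Hochberg over all of them with a threshold of 0.05. The procedure was tested on simulated data with independent replicates and far fewer changed genes than were called here, so that test does not cover technical replicates. The pseudocount of 1 makes differences of low genes too small. The Mt1 to Mt2 ratio was compared with a two-sided exact permutation test over every split of the samples (numpy 2.4.6).

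Groups were taken from the sample titles. The 6 genes, the gene lists and the markers were chosen with earlier results of these data known, and no p-value was adjusted over a list. Every list gene could be named, the largest and smallest differences of each list being among them, together with genes within 200 kb of the cluster, of which 1 is not reported here, and the 3 genes nearest in profile to Mt1, Mt2 and Mt3. Coding sequences, loci and motif windows came from GENCODE vM1 on mm9. Where transcripts are shorter than annotated, their FPKM are too low. Alternatives changed the pseudocount, the filter, the scaling, the trend, the replicate block, the status filter, the size threshold and the replicates used. Hi-C data were not analysed here.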

Additional observations from a re-analysis of the deposited data

How the results depend on the processing

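Over 14 alternatives, Mt1 (-1.16 to -0.74), Mt3 (-11.8 to -8.34) and Mtf1 (0.64 to 0.92) kept their direction and an adjusted p under 0.05 in limma in all 14; Mt2 did in 9 (0.25 to 0.49, adjusted p 0.0016 to 0.187) and Slc30a1 in 7 (-0.19 to 0.0042, adjusted p 0.0172 to 0.953). Slc30a1 reversed to 0.0042 when samples were rescaled to the same sum, which moved the median of all genes by 0.16, and was -0.12 (adjusted p 0.0824) under quantile normalization; the cause was not tested. A required log2 difference of at least 1 is 1 of the 14 alternatives, and it leaves each difference and p as they were and changes only the call. With it, Mt2 (0.31), Mtf1 (0.71) and Slc30a1 (-0.15) were no longer called, although the counts by adjusted p above include it for these genes. Mt1 stayed called at -1.09, but its difference was under 1 in size after rescaling to the same sum (-0.92) and under quantile normalization (-0.74). The genes called were 2103 (STO higher) and 2617 (STO lower) in place of 5153 and 5375. Of the lists, 12 were higher and 10 lower in place of 24 and 19. The same threshold lowered the zinc exporters from 6 to 2 higher and the zinc importers from 5 and 5 to 3 and 2. Without the filter on low values Slc30a10 was called lower. Leaving out 1 replicate at a time gave -1.16 to -1.02 for Mt1, 0.25 to 0.40 for Mt2, -8.62 to -8.35 for Mt3, 0.64 to 0.74 for Mtf1, -0.18 to -0.11 for Slc30a1 and -1.42 to -1.38 for the log2 ratio of Mt1 to Mt2. It gave 4704 to 5065 genes higher and 4900 to 5253 lower. With 1 NSC sample left, it is assumed to vary like the STO samples. With the replicate number as a block, Mt2 was 0.26 (adjusted p 0.0712) and Slc30a1 -0.14 (adjusted p 0.135), neither called, while Mt1, Mt3 and Mtf1 were called; 4994 genes were higher and 5252 lower. Deviations of samples with the same number correlated at 0.0075 and 0.061, those with different numbers at -0.061 to 0.050, and the deviations of the 2 NSC samples mirror each other, so a pairing by number is neither shown nor refuted.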
